A study of Mus musculus with 16 samples.

Results

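The 38 genes described here make ribosomes or are classical targets of the transcription factor Myc: small nucleolar ribonucleoprotein (snoRNP) subunits, nucleolar proteins, assembly factors of both ribosomal subunits, RNA polymerase I subunits, and the polyamine enzymes Odc1 and Srm. They were chosen by name out of 54532 genes, with earlier results of these data known, and all 38 were found in the deposited tables. The tables cover KPC1199, a mouse pancreatic cancer line, and are read here as cells sorted from tumours grown in the pancreas. Labels name 16 samples, of which 8 were tumour tissue, taken as not part of the tables used, and 8 were sorted cells. The sorted cells form 4 groups of 2 libraries: cells labelled Ly6D WT, cells overexpressing Ly6d, and cells sorted for high or for low Ly6d, a cell surface protein gene of the Ly6 family.

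All groups come from a single line, so nothing here speaks of other tumours. The sources used here give neither the overexpression construct, the host strain and age, the time of growth nor the sorting gates, and do not say whether high and low cells shared tumours. Columns were tied to groups by name. Those for overexpression carry a name found only in the titles of overexpressing tumour tissue. The titles of sorted overexpression samples carry a different name. Those for WT carry a name found in the titles of both sorted and tissue WT samples. That both are sorted cells is therefore an inference. Nothing says that the libraries of a group came from separate animals, so the p-values measure the spread between these libraries, which may be technical.

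Ribosome production begins in the nucleolus, where RNA polymerase I transcribes ribosomal RNA. Box C/D and box H/ACA snoRNPs, guided by small nucleolar RNAs, methylate it and turn uridines into pseudouridine, and assembly factors fold, cut and export the small and large subunits. Myc raises the transcription of many genes at each of these steps, often through the DNA sequence CACGTG, called an E-box, and its activity is often raised in pancreatic cancer.

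The E-box letters were looked for around the start sites, since they bear on which members Myc could bind directly. RefSeq windows of 300 bases (GRCm38.p6, 250 bases before the start and 50 after) existed for 33 of the 38 members. CACGTG, which reads the same on both strands, was in the window of 8 members, or 24.2%, beside 11.3% of 10758 protein-coding genes tested and 8.09% of all 27025 genes with a window. The other 25 windows lacked these letters, which says nothing of E-boxes elsewhere, such as in an intron. The 8 genes act in small subunit assembly (Imp4, Wdr43, Tsr1 and Utp20), large subunit assembly (Nop2, Pes1 and Grwd1) or the nucleolus at large (Mybbp1a). Related genes outside the members had shares of 28.1% (other small subunit factors), 21.2% (large subunit), 16.7% (polymerase I) and 0% (modification). Shares were 41.2% for Myc targets outside ribosome production, 36.4% for Myc network genes and 20% for other polyamine genes. The members were themselves chosen as ribosome or Myc target genes. Of the 7 members that fell with overexpression, 6 had a window and 1, Nop2, held the E-box. Its last 150 bases before the start site (chr6:125131733-125131882, plus strand) are shown with the E-box in capitals:
Nop2: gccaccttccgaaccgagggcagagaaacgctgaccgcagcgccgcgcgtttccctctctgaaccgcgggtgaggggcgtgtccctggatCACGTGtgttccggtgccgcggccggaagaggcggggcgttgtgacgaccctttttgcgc

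The E-box of Nop2 begins at position -60. For 5 further members it is shown with 10 bases on each side, to let the flanks be compared. It begins at -121 in Imp4 (chr1:34439698-34439723, plus strand), at 3 in Pes1 (chr11:3963967-3963992, plus strand), at 18 in Wdr43 (chr17:71616222-71616247, plus strand), at 25 in Tsr1 (chr11:74898094-74898119, plus strand) and at 35 in Grwd1 (chr7:45830740-45830765, minus strand), counted from the start site:
Imp4: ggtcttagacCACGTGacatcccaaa
Pes1: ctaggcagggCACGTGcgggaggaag
Wdr43: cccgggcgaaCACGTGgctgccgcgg
Tsr1: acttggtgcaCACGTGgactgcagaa
Grwd1: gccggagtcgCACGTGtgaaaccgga

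Another feature of some members was the hosting of small nucleolar RNA genes, whose products guide the snoRNPs. Of the 37 members tested, 9 (24.3%) held such a gene on their own strand within their bounds: Nop56, Nop58, Dkc1, Ncl, Gnl3, Wdr43, Tsr1, Ppan and Odc1. The same was true of 1.58% of 13766 protein-coding genes tested.

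The libraries held 15449241 to 18290325 counts for WT and overexpression cells and 15063975 to 20509539 reads recovered from TPM for Ly6d-high and Ly6d-low cells. Ly6d itself was at 1260.0 and 1066 CPM (counts scaled to the library total) in WT and at 3380 and 3423 CPM in overexpression libraries. All 8 epithelial markers of the line were present, with summed levels of 12389 to 12760 CPM in WT and 13186 to 13890 CPM in overexpression libraries. Of these markers 1 was called higher and 0 lower. Markers of other cells moved with overexpression: 12 of 12 acinar markers (21271 to 21829 CPM in WT, 1553 to 1709 CPM in overexpression), 8 of 8 islet markers (1230 to 1391 and 594 to 643 CPM) and 5 of 8 endothelial markers (288 to 291 and 142 to 165 CPM) were lower. Higher were 7 of 10 macrophage markers (92.1 to 92.6 and 264 to 266 CPM), 5 of 8 tested neutrophil markers (55.7 to 55.8 and 163 to 170 CPM, Elane at 0 with overexpression) and 2 of 4 tested B and plasma cell markers (10.4 to 11.8 and 84.7 to 86.7 CPM), as well as 2 of 8 fibroblast markers (5230 to 5806 and 6199 to 6227 CPM). In Ly6d-low and Ly6d-high libraries, fibroblast markers summed to 391 to 398 and 404 to 484 TPM. Epithelial markers there summed to 56573 to 57754 and 40171 to 40744 TPM. CPM and TPM are unlike scales, and whether the count columns hold tumour tissue was not tested. A short gene annotated as a miRNA, Gm23935, took 0.823% of the counts of WT replicate 2 and 0.0487% to 0.0654% of the other 3 libraries. The part of these in the results below was not tested.

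Levels of the members spanned a wide range. Per kilobase of gene, the nucleolar chaperone Npm1 was the highest in the count table at 201 CPM, followed by Nhp2, Ncl, Odc1 and Nop10 at 68.8, 58.4, 54.4 and 52.9 CPM. The same 5 genes, less Odc1 and with Nop56, led the TPM table. At the other end of the count table stood Wdr12, Rrp1b and Heatr1, at 2.63, 4.50 and 4.89 CPM per kilobase. These ranks rest on the listed gene lengths, such as 11955 bases for Wdr12 and 2665 for Npm1. The lengths were not compared with those of the transcripts. Wdr74, a large subunit assembly factor, had 1 read in WT replicate 1, Ly6d-high replicate 1 and Ly6d-low replicate 2 and none in the other 5 libraries, so it was not tested. It overlaps the gene model Gm45736 on the same strand, which had no reads. The lowest count of any tested member was 372 (Rrp9, overexpression replicate 1) and the lowest number of recovered reads was 122 (Heatr1, Ly6d-low replicate 1).

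**Figure D1:**
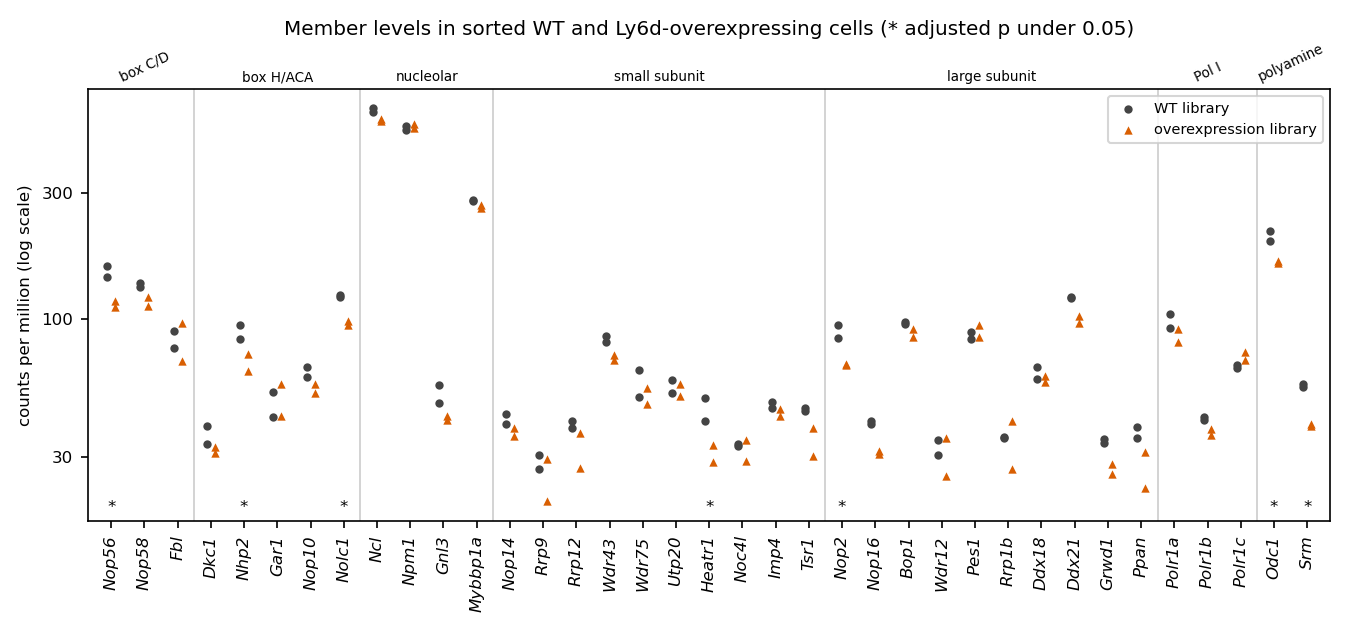
CPM (log axis) of the 37 tested members in each sorted WT library (circles) and overexpression library (triangles), grouped by role, with an asterisk for an adjusted p under 0.05. For Nop56, Nhp2, Nolc1, Heatr1, Nop2, Odc1 and Srm, all marked, both triangles lie below both circles.

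With Ly6d overexpression, 7 of the 37 tested members fell and 0 rose (edgeR quasi-likelihood test, adjusted p under 0.05 over all 15771 genes tested). They were Nop56, Nhp2, Nolc1, Heatr1, Nop2, Odc1 and Srm, and their mean CPM fell by 20.1% (Odc1) to 31.9% (Heatr1). Over all genes tested, 1.84% were called lower and 2.32% higher. DESeq2 called the same 7 members lower and 0 higher, beside 1.61% lower and 2.17% higher of the genes it kept. The members' median log2 fold change was -0.21, that of all genes 0.00, and 33 members had a value below 0. Both overexpression libraries lay below both WT libraries for 25 members and above them for 1, Polr1c. Among all genes tested, 21.7% lay below and 26.3% above in this way. In bulk RNA, fewer cells of a type and less RNA per cell cannot be told apart.

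The summed level of the 38 genes was 3824 and 3759 CPM in the WT libraries and 3350 and 3444 CPM in the overexpression libraries. In overexpression replicate 1, 33 of 38 members lay below their WT mean, and in replicate 2, 31 did. Markers of proliferation were also lower in sum, at 946 to 969 CPM in WT and 838 to 843 CPM with overexpression. All 10 had a log2 fold change below 0 (median -0.23) and 1 passed the test. Their part in the members' difference was not tested.

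Of the box C/D snoRNP core, which methylates ribosomal RNA, Nop56 (chr2:130274430-130279313) fell. It was at 158 and 144 CPM in WT and at 111 and 117 CPM in overexpression libraries, so the groups did not overlap. The log2 fold change was -0.43 ± 0.08 (SE; adjusted p = 0.00841), and the call held in all 7 alternative analyses (adjusted p from 1.31e-05 to 0.0206). Its paralogue and partner Nop58 stood at 136 and 132 CPM against 112 and 121 CPM, a log2 fold change of -0.22 ± 0.07 that did not pass (adjusted p = 0.142). Fibrillarin, Fbl, the methyltransferase itself, had overlapping libraries at 89.96 and 77.8 CPM against 69.2 and 96.2 CPM. So the scaffold Nop56 passed the test and the enzyme did not, with a log2 fold change of -0.04 ± 0.14 for Fbl. The difference between the genes was not tested.

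In the box H/ACA particle, which makes pseudouridine, the RNA-binding subunit Nhp2 fell from 94.4 and 84.1 CPM to 63.5 and 73.4 CPM (log2 fold change -0.40 ± 0.10, adjusted p = 0.0480). Nolc1, a chaperone that brings snoRNPs to the nucleolus, fell from 123 and 121 CPM to 94.6 and 97.9 CPM (-0.36 ± 0.07, adjusted p = 0.0204). Neither gene had overlapping groups. The enzyme Dkc1 (dyskerin, -0.21 ± 0.13), the smallest subunit Nop10 (-0.22 ± 0.10) and the fourth core protein Gar1 (0.04 ± 0.14) did not pass. Nhp2 lost its call without WT replicate 1 or overexpression replicate 1, and Nolc1 without WT replicate 2 (adjusted p up to 0.201 and 0.0520 over the alternatives).

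The abundant nucleolar proteins showed none of these drops past the threshold. Npm1, which shuttles assembled particles and has the highest level per kilobase, was at 539 and 523 CPM in WT and at 532 and 549 CPM with overexpression (log2 fold change 0.01 ± 0.06). Nucleolin, Ncl, stood at 609.6 and 630.0 CPM against 574 and 565 CPM (-0.14 ± 0.06, adjusted p = 0.293). Mybbp1a, a Myb-binding nucleolar protein, gave -0.09 ± 0.06, and Gnl3 (nucleostemin), a GTPase of stem and tumour cells, gave -0.33 ± 0.11 (adjusted p = 0.144). Standard errors of the first 3 were among the smallest of the members, whose range was 0.06 to 0.18.

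All 10 members of small subunit assembly had a log2 fold change below 0, and 1 passed. Heatr1, a scaffold of the early processome that RNA polymerase I transcription also needs, fell from 40.9 and 50.1 CPM to 33.3 and 28.7 CPM. Its log2 fold change of -0.57 ± 0.14 was the furthest from 0 of all members (adjusted p = 0.0415), and the call was lost without WT replicate 2. Tsr1, a late maturation factor, gave -0.42 ± 0.13 (adjusted p = 0.112). Rrp12, an export factor, gave -0.34 ± 0.15. The other 7 (Wdr43, Rrp9, Nop14, Wdr75, Imp4, Noc4l and Utp20) lay between -0.25 and -0.06.

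Of the 10 tested members of large subunit assembly, 9 had a log2 fold change below 0 and 1 passed. Nop2, an RNA methyltransferase long used as a proliferation antigen, fell from 94.5 and 84.8 CPM to 67.3 and 66.6 CPM (-0.44 ± 0.09, adjusted p = 0.0174). It lost the call without WT replicate 1 (adjusted p = 0.107). Ppan (-0.47 ± 0.15), Nop16 (-0.39 ± 0.12), the histone-binding factor Grwd1 (-0.37 ± 0.13) and the RNA helicase Ddx21 (-0.29 ± 0.08) had groups that did not overlap and adjusted p between 0.0614 and 0.149. The PeBoW complex, in which Pes1, Bop1 and Wdr12 act together, stood closer to 0: Pes1 at 0.04 ± 0.09, Bop1 at -0.14 ± 0.08 and Wdr12 at -0.13 ± 0.16.

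RNA polymerase I subunits did not pass. The largest subunit, Polr1a, was at 92.1 and 104 CPM in WT and at 82.0 and 91.4 CPM with overexpression (-0.19 ± 0.10, adjusted p = 0.329), and Polr1b gave -0.20 ± 0.11. Polr1c, which RNA polymerase III also contains, gave 0.12 ± 0.09.

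Both polyamine enzymes fell. Ornithine decarboxylase, Odc1, which starts polyamine synthesis, went from 215 and 197 CPM to 166 and 163 CPM (-0.34 ± 0.07, adjusted p = 0.0174). Spermidine synthase, Srm, went from 56.8 and 55.0 CPM to 39.1 and 40.0 CPM (-0.52 ± 0.10, adjusted p = 0.0146). For each the groups lay apart. Odc1 lost its call without WT replicate 1, and Srm without either WT library (adjusted p up to 0.0627 and 0.0580 over the alternatives). In all, 3 of the 7 members kept their call without WT replicate 1 (Nop56, Nolc1 and Heatr1), and 4 did without WT replicate 2 (Nop56, Nhp2, Nop2 and Odc1). Without overexpression replicate 1 or 2, 8 and 9 members were called lower, against 5.53% and 3.22% of all genes in those fits. No member was called higher in any of the 7 alternatives.

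Of the called members, 3 overlap a protein-coding gene on the opposite strand, and the sources used here do not give the strand setting of the counting. The overlap spans 5 bases for Nop56 with Idh3b, 44 for Nhp2 with Rmnd5b and 875 for Heatr1 with Lgals8. The log2 fold changes of these neighbours were 0.02 ± 0.07, -0.04 ± 0.13 and 0.15 ± 0.10, and none passed. All 9 members that host small nucleolar RNA genes had a log2 fold change below 0, with a median of -0.33, beside -0.18 in the other 28 members and 0.00 in all 218 tested hosts.

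**Figure D2:**
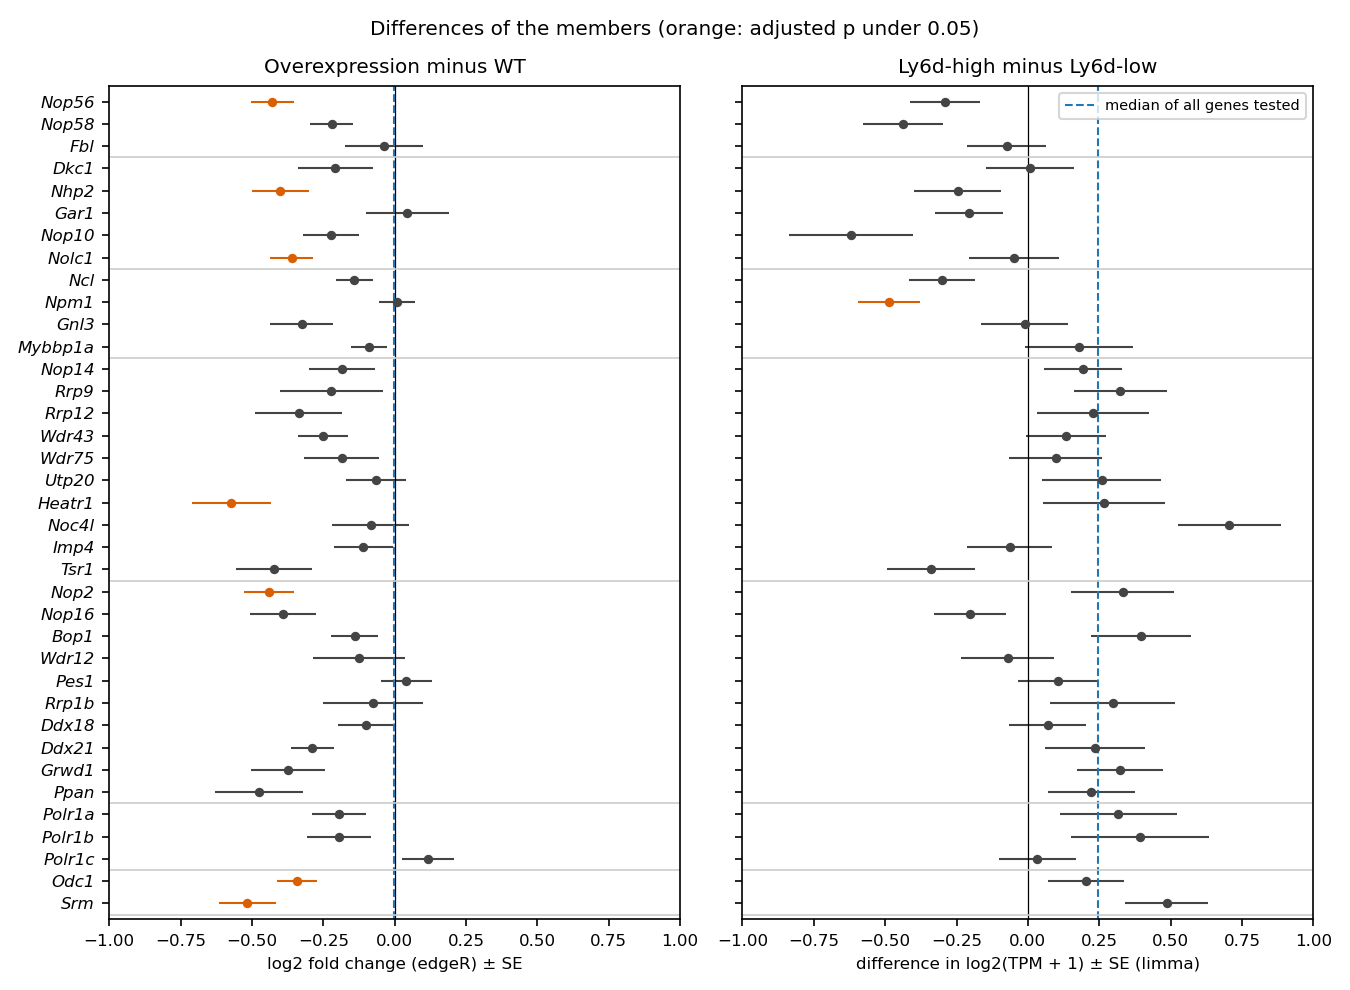
Log2 fold change of each tested member with its standard error for overexpression minus WT (left, edgeR) and for Ly6d-high minus Ly6d-low (right, limma on log2(TPM + 1)), grouped by role; the dashed line is the median of all genes tested. On the left 33 of 37 points lie below 0, and on the right all 12 snoRNP and nucleolar genes lie left of the dashed line at 0.25.

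Other genes of the same pathway had a median closer to 0, a difference that was not tested. Members and lists were chosen with earlier results of these data known, so the choice itself may contribute to it. Of 107 further ribosome biogenesis genes tested, 86 had a log2 fold change below 0 (median -0.14), with 1 called lower and 0 higher. That gene, Taf1a, encodes a subunit of the selectivity factor that recruits RNA polymerase I. It fell from 16.3 and 17.8 CPM to 8.47 and 9.44 CPM (-0.95 ± 0.19, adjusted p = 0.0163). Leaving out WT replicate 2 ended this call (adjusted p = 0.125). By role, the medians were -0.04 for 13 polymerase I genes, -0.14 for 40 small subunit factors, -0.17 for 39 large subunit factors, of which 37 lay below 0, and -0.12 for 15 modification factors. Myc targets outside ribosome production had a median of -0.08 over 35 genes, and 0 passed by edgeR, with 10 lower and 0 higher at an unadjusted p under 0.05. DESeq2 called 2 of them lower, the chaperones Fkbp4 and Hspd1, named here after their values were seen. At an unadjusted p under 0.05, 17 of 37 members were lower and 0 higher, against 1299 lower and 1428 higher among all 15771 genes.

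**Figure D3:**
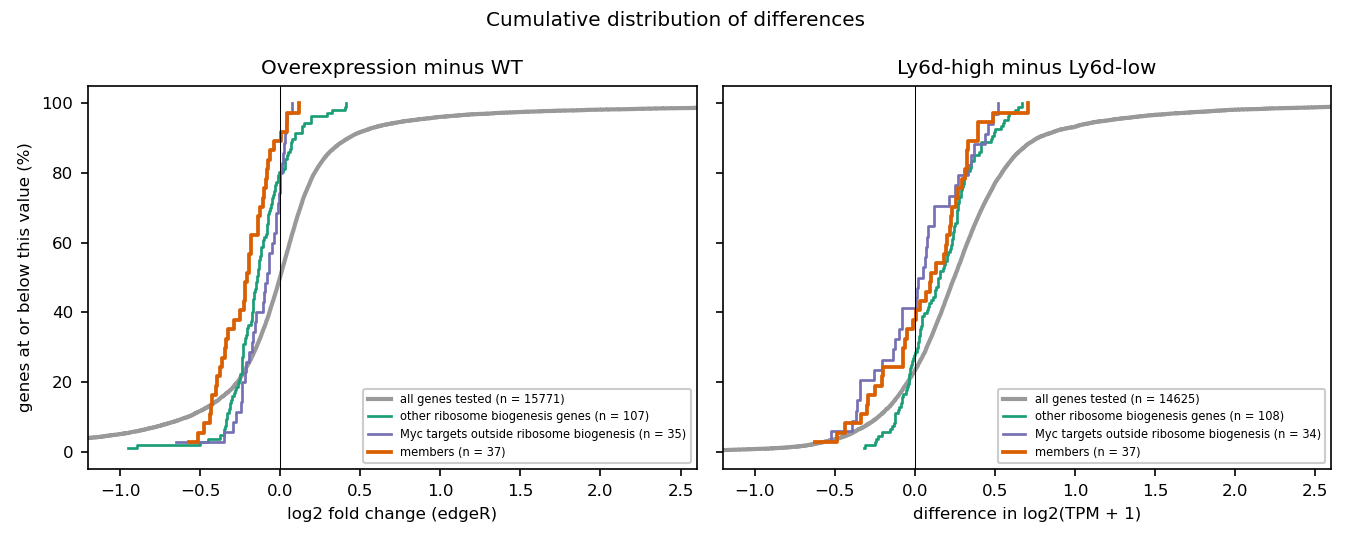
Share of genes (vertical axis, percent) at or below a given difference (horizontal axis, log2) for all genes tested, the 37 members, other ribosome biogenesis genes and Myc targets outside ribosome biogenesis, in overexpression minus WT (left) and Ly6d-high minus Ly6d-low (right). On the left the members' curve reaches its median at -0.21 and that of all genes at 0.00.

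Among the transcription factors of the Myc network, the genes called were repressors. Max pairs with Myc to activate and with Mxd, Mxi1 and Mnt proteins to repress the same E-boxes. Myc was at 121 and 118 CPM in WT and at 103 and 104 CPM with overexpression (-0.23 ± 0.07, adjusted p = 0.127), so it did not pass although its groups lay apart. Mxi1 rose from 56.4 and 54.0 CPM to 77.6 and 81.4 CPM (0.51 ± 0.09, adjusted p = 0.00952). Mnt rose from 49.0 and 48.6 CPM to 70.8 and 66.7 CPM (0.48 ± 0.10, adjusted p = 0.0168).

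Mxd1 rose as well, from 112 CPM in both WT libraries to 155 and 141 CPM (0.38 ± 0.07, adjusted p = 0.0148). Thus 3 of the 12 network genes tested rose and 0 fell. The genes of the network that did not pass lay between -1.68 (Mycl, under 2 CPM in each library) and 0.43 (Mycn, adjusted p = 0.109), the ends of the range being named after their values were seen. Calls of Mxi1 and Mxd1 held in all 7 alternatives, and that of Mnt was lost without either WT library (adjusted p up to 0.0570). Mxd1 is also expressed in maturing neutrophils, whose markers were higher in the same libraries, and their part was not tested.

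**Figure D4:**
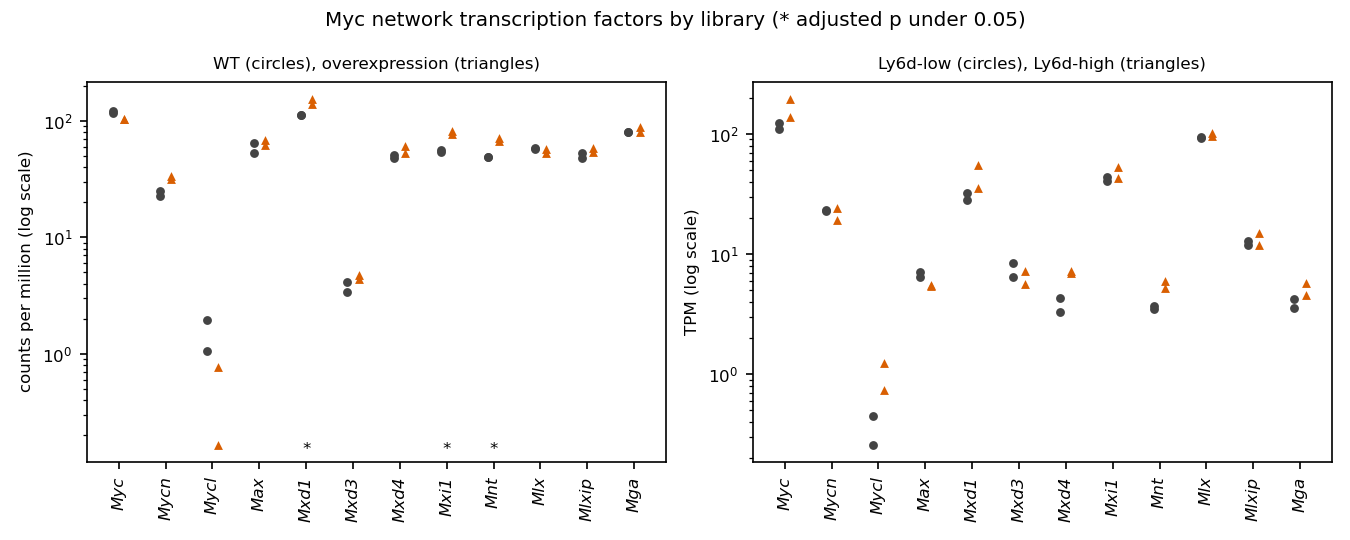
Levels (log axis) of 12 Myc network transcription factor genes in each library: CPM in sorted WT and overexpression cells (left) and TPM in sorted Ly6d-low and Ly6d-high cells (right), with an asterisk for an adjusted p under 0.05. On the left Mxd1, Mxi1 and Mnt, all marked, have both overexpression libraries above both WT libraries.

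Of 11 other polyamine genes tested, 1 fell and 1 rose. Azin1, which protects Odc1 protein from the antizymes, fell from 103 and 107 CPM to 84.4 and 83.9 CPM (-0.34 ± 0.08, adjusted p = 0.0375). Its losses of the call included the fits without either WT library and with DESeq2 (adjusted p up to 0.226 over the alternatives). Arginase Arg1, which makes the Odc1 substrate ornithine and is abundant in macrophages, rose from 4.64 and 4.53 CPM to 26.1 and 19.9 CPM (2.31 ± 0.21, adjusted p = 6.03e-05), in libraries with higher macrophage markers.

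Ly6d-high and Ly6d-low cells of the same line were compared next. Ly6d, on which the cells were sorted, was at 1.56 and 0.352 TPM in low and at 697 and 504 TPM in high libraries. The median difference of all 14625 genes tested was 0.25 on the log2(TPM + 1) scale, so members are given also relative to it. Of all genes tested, 1.17% were called lower and 8.64% higher (limma, adjusted p under 0.05). The split moved with scaling: 1264 genes were higher and 171 lower in TPM, 702 and 246 with TMM factors on TPM, 1224 and 591 with edgeR on recovered reads, and 935 and 602 with DESeq2 on them.

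Of the 37 tested members 1, Npm1, was called, and it fell by 28.7%. It was at 489 and 465 TPM in Ly6d-low and at 356 and 324 TPM in Ly6d-high libraries, so the groups lay apart (difference -0.49 ± 0.11, adjusted p = 0.0361). The call was lost with TMM factors (adjusted p = 0.0568), without the filter on low values and without either Ly6d-low library. It held with edgeR and DESeq2 on recovered reads. The members' median difference was 0.10, or -0.14 relative to all genes, and 26 of 37 lay below the median of all genes.

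**Figure D5:**
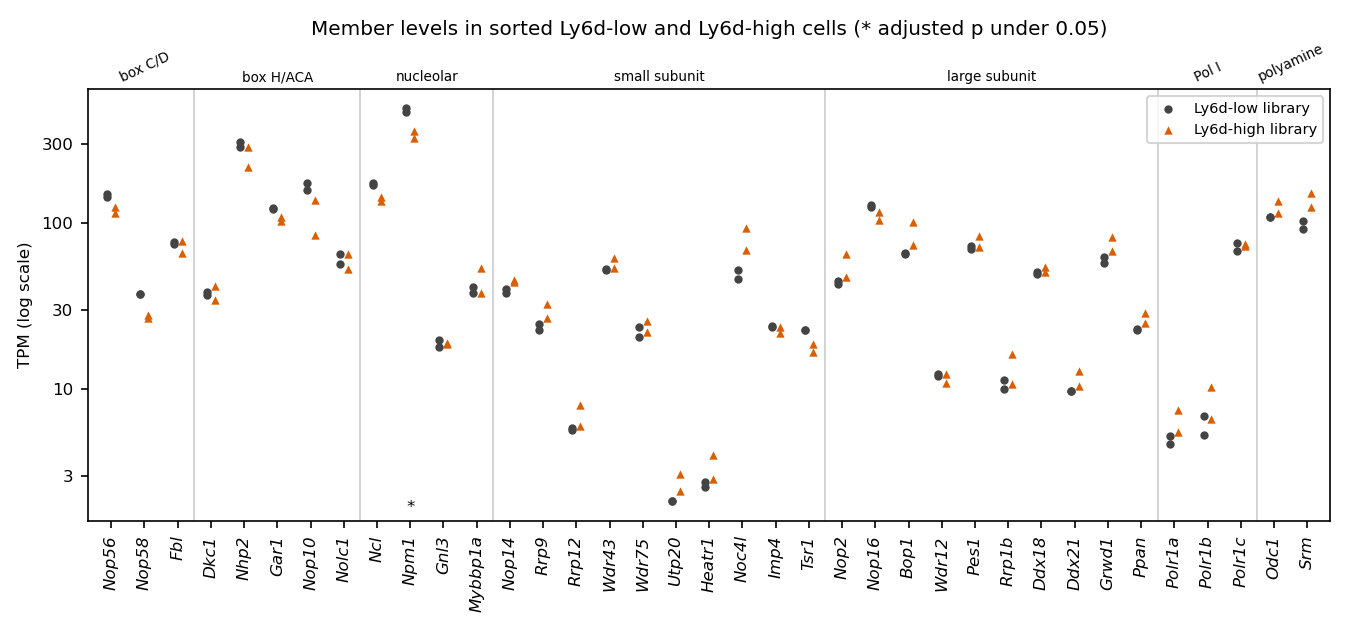
TPM (log axis) of the 37 tested members in each Ly6d-low library (circles) and Ly6d-high library (triangles), grouped by role, with an asterisk for an adjusted p under 0.05. Npm1, marked, has both triangles below both circles, and Noc4l has both above.

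Roles differed in where they lay. Relative to all genes, the medians were -0.54 for the box C/D core, -0.45 for the box H/ACA genes, -0.40 for the nucleolar proteins, -0.04 and -0.02 for small and large subunit assembly, 0.07 for RNA polymerase I and 0.10 for the polyamine enzymes. These are descriptions with 2 to 11 genes each, and the difference between roles was not tested. Groups did not overlap for 8 members that were lower and 16 that were higher in Ly6d-high libraries, against 10.4% and 54.4% of all genes.

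In the snoRNP core, Nop58 was at 37.5 and 37.2 TPM in low and at 26.7 and 27.9 TPM in high libraries (-0.44 ± 0.14, adjusted p = 0.0952). Nop56 was at 150.1 and 143 TPM against 115 and 125 TPM (-0.29 ± 0.12, adjusted p = 0.162). Nop10 had the value furthest below 0 of all members, at 175 and 158 TPM against 136 and 85.0 TPM (-0.62 ± 0.22, adjusted p = 0.115). For each of these the libraries lay apart, but the difference did not pass in TPM. Gar1, at 122 and 123 TPM against 103 and 109 TPM, gave -0.21 ± 0.12.

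With scaling that brings the median of all genes near 0, more members were called, all of them lower. Using edgeR on recovered reads, Nop56, Nop58, Gar1, Ncl, Npm1 and Tsr1 were called lower, 6 of 37, against 3.87% of all genes called lower and 8.01% higher in that fit. DESeq2 on those reads called these 6 and also Nop10 and Nop16, 8 in all, against 3.42% lower and 5.32% higher. TMM factors on TPM left 4 (Nop56, Nop58, Ncl and Tsr1), against 1.68% lower and 4.8% higher. With edgeR on reads, the log2 fold change was -0.75 for Nop58, -0.59 for Nop56, -0.60 for Ncl, -0.65 for Tsr1, -0.50 for Gar1 and -0.77 for Npm1. The members' median was -0.19 in that fit, and that of all genes 0.01.

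Nucleolin, Ncl, was at 174 and 169.8 TPM in low and at 136 and 143 TPM in high libraries. Tsr1 was at 22.6 and 22.7 TPM against 16.7 and 18.8 TPM. Both were thus lower in each Ly6d-high library than in each Ly6d-low library. The other nucleolar proteins, Gnl3 and Mybbp1a, gave -0.01 ± 0.15 and 0.18 ± 0.19 with overlapping libraries.

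Assembly factors, polymerase subunits and polyamine enzymes mostly lay above 0 in TPM. In each of the 3 rescaled fits 12 members turned to values below 0, all in these roles but Dkc1 and Mybbp1a. Noc4l, a partner of Nop14 in the small subunit, was highest, at 46.1 and 51.8 TPM in low and 68.8 and 93.8 TPM in high libraries (0.71 ± 0.18, adjusted p = 0.0540). Srm was at 92.4 and 103 TPM against 124 and 150.4 TPM (0.49 ± 0.14, adjusted p = 0.0804), and Bop1 at 65.0 and 66.0 TPM against 73.8 and 102 TPM (0.40 ± 0.17). Odc1 (0.20 ± 0.13), Nop2 (0.33 ± 0.18), Polr1a (0.32 ± 0.21) and Heatr1 (0.27 ± 0.21) did not pass, and with edgeR on reads the value of Odc1 was -0.09 and those of the other 3 were 0.05, 0.08 and 0.06.

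Single libraries weighed on this comparison. Against the Ly6d-low mean, the median of all genes was 0.16 in Ly6d-high replicate 1 and 0.35 in replicate 2, and the members' medians were 0.03 and 0.17. Without Ly6d-high replicate 1, 19 members were called, 7 lower and 12 higher, in a fit that called 8.15% of all genes lower and 41.1% higher. Without replicate 2, 4 were lower (Npm1, Ncl, Nop56 and Nop58) and 1, Noc4l, higher, against 2.72% and 9.12% of all genes. Without either Ly6d-low library, which leaves 1 low library, limma no longer called any member. Other genes were still called in those fits, more of them higher than lower. In Ly6d-high cells 9 of 12 acinar markers (5955 to 5960 TPM in low, 12842 to 14490 TPM in high) and 5 of 8 tested macrophage markers (78.8 to 84.6 and 231 to 238 TPM) were higher, and 4 of 8 epithelial markers were lower and 1 higher (56573 to 57754 and 40171 to 40744 TPM). Also moving were islet markers (4 of 8 lower, 721 to 764 and 358 to 409 TPM), neutrophil markers (2 of 3 tested higher, 67.9 to 70.1 and 173 to 208 TPM) and B and plasma cell markers (2 of 4 tested higher, 5.86 to 6.88 and 83.4 to 95.8 TPM). All 10 proliferation markers lay below the median of all genes, as 26 members did, with a median of -0.23 relative to it. The part of these markers was not tested.

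Among pathway genes outside the members, no ribosome biogenesis gene of 108 tested was called in TPM by limma, with 11.1% higher and 0 lower at an unadjusted p under 0.05, beside 27.0% higher and 3.72% lower of all genes. Their median was 0.15, or -0.09 relative to all genes. On recovered reads edgeR called 2 of them lower (1.85%) and DESeq2 called 6 (5.56%), and 0 higher. Of all genes, edgeR called 3.87% lower and 8.01% higher on reads, and DESeq2 3.42% and 5.32%. Lactate dehydrogenase Ldha, a Myc and hypoxia target, fell from 3830.4 and 3814 TPM to 2590.0 and 2564 TPM (-0.57 ± 0.08, adjusted p = 0.00466), 1 of 34 Myc targets tested outside ribosome production. Its call was lost without the filter on low values and without either Ly6d-low library (adjusted p up to 0.112 over the alternatives). Of this list 3 were called lower with TMM factors (8.82%), 8 with edgeR on reads (23.5%) and 10 with DESeq2 on reads (28.6%). The shares of all genes called lower were 1.68%, 3.87% and 3.42%. Myc was at 111 and 123 TPM in low and at 138 and 196 TPM in high libraries (0.49 ± 0.18, adjusted p = 0.126). Of the 11 network genes tested 0 passed by limma, with 36.4% (4 genes) higher and 0 lower at an unadjusted p under 0.05, beside the 27.0% and 3.72% of all genes. On reads edgeR called 1 higher (8.33%, Mxd4, named after its values were seen), beside 8.01% of all genes, and DESeq2 0.

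Of 12 other polyamine genes tested in TPM, 3 were called higher and 0 lower, beside 8.64% and 1.17% of all genes. With TMM factors and with DESeq2 on reads, 0 were called either way. Using edgeR on reads, 1 was higher and 1 lower (8.33% each), beside 8.01% and 3.87% of all genes. Sat1, which acetylates spermidine and spermine for export, went from 242 and 243 TPM to 374 and 318 TPM (0.51 ± 0.12, adjusted p = 0.0462). This call was lost under 7 of 10 alternatives, among them all 3 that rescale or use reads. Mitochondrial arginase Arg2 went from 1.39 and 0.642 TPM to 5.502 and 4.21 TPM (1.56 ± 0.26, adjusted p = 0.0119), and Arg1 from 2.5998 and 1.88 TPM to 5.37 and 5.53 TPM (1.003 ± 0.20, adjusted p = 0.0264). Arg1 lost its call without the filter, with TMM factors, on reads with either tool and without Ly6d-low replicate 2. Arg2 lost it without the filter, with TMM factors and with DESeq2.

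Set side by side, the 7 members lower with overexpression and the 1 lower in Ly6d-high cells in TPM had none in common. With TMM factors, and on reads with edgeR or DESeq2, Nop56 was called lower in Ly6d-high cells too. Nop2, Srm and Heatr1 had log2 fold changes of -0.44, -0.52 and -0.57 with overexpression and differences of 0.33, 0.49 and 0.27 in Ly6d-high cells, which relative to all genes were 0.09, 0.24 and 0.02. Nop56 was below 0 in both, at -0.43 and -0.29. Npm1 was at 0.01 with overexpression and at -0.49 in Ly6d-high cells. Relative to all genes, 22 of 37 members lay below the median in both comparisons and 0 above it in both. With overexpression 33 lay below it and in Ly6d-high cells 26, so 22 is the fewest that could lie below in both. These counts therefore do not speak of agreement between the comparisons. Since one table holds counts and the other TPM, the comparisons were not tested against each other.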

How the data were processed

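On the reading of the columns given above, RNA was sequenced from cells sorted from KPC1199 tumours. Per the submitters' processing notes, the authors' tools were fastp, HISAT2, featureCounts and DESeq2, and the build mm9; the notes give no versions. Gene coordinates match GENCODE on GRCm38 for 98.3% of 54409 shared genes and for 36 of the 38 members, so coordinates are named GRCm38. The deposited WT and overexpression table holds raw counts, and the deposited Ly6d-high and Ly6d-low table holds TPM. Both deposited tables also list each gene's length in bases. Left out were 2 per-sample columns whose names matched none of the samples.

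Counts were tested with edgeR 4.0.16 (filterByExpr, TMM, quasi-likelihood) in R 4.3.3. TPM went into limma-trend (version 3.58.1) as log2(TPM + 1), the pseudocount being 1, for genes reaching 1 TPM in 2 or more libraries; these differences understate the change of low genes. Benjamini-Hochberg adjustment ran over all genes tested, with a threshold of 0.05. Standard errors from edgeR are the fold change over the root of its F statistic. Reads were recovered from TPM times gene length, all values whole within 0.1 reads. CPM are counts over library totals. Alternatives were DESeq2 1.42.0, other filters, pseudocount and scaling, a replicate block, and leaving out each library. Both tests were tried on simulated data. The members and lists were chosen with earlier results of these data known. Named are all members, genes of the pathway lists past the threshold, Myc and Ly6d.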

Additional observations from a re-analysis of the deposited data

How the results depend on the processing

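Of the 7 members called lower with overexpression, Nop56 kept its call in all 7 alternatives; 7 members were called with DESeq2, 10 without a filter on low counts and 3 to 9 without one library. Genes called numbered 656 at first, 675 with DESeq2, 1187 without the filter (608 higher, 579 lower) and 527 to 1644 without one library. Npm1 gave -0.0017 without the filter.

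For Ly6d-high against Ly6d-low cells, 1435 genes were called at first, 531 without a filter on low values, 948 with TMM factors and 931 to 6710 without one library. Members called were 1 at first, 0 without the filter (limma), 4 with TMM factors, 6 with edgeR and 8 with DESeq2 on reads, and 0 to 19 without one library. With TMM factors, edgeR on reads and DESeq2 on reads, in that order, the sign turned for Dkc1 (-0.26, -0.29 and -0.30), Mybbp1a (-0.091, -0.10 and -0.12), Nop14 (-0.079, -0.095 and -0.11), Rrp12 (-0.013, -0.028 and -0.043), Wdr43 (-0.14, -0.16 and -0.17), Wdr75 (-0.17, -0.20 and -0.21), Pes1 (-0.17, -0.19 and -0.20), Ddx18 (-0.20, -0.22 and -0.24), Ddx21 (-0.017, -0.014 and -0.028), Ppan (-0.044, -0.063 and -0.077), Polr1c (-0.24, -0.26 and -0.27), Odc1 (-0.072, -0.090 and -0.10), Taf1a (-0.028, -0.045 and -0.061), Mxi1 (-0.087, -0.11 and -0.12) and Azin1 (-0.11, -0.12 and -0.14), none called in TPM. These fits move the median of all genes from 0.25 to near 0.

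Same-numbered libraries did not deviate together (correlation -0.01 for overexpression with WT, 0.07 for high with low). With 2 libraries a group this cannot exclude that some were paired, since noise between libraries can hide a shared source. With a replicate block, 457 genes and 5 members were called for overexpression (Nhp2, Heatr1 and the pathway gene Azin1 lost their calls). These 5, all lower, were 13.5% of the members, beside 1.28% of all genes lower and 1.62% higher. For Ly6d-high cells 4179 genes (3581 higher, 598 lower) and 6 members (3 higher, 3 lower) were called. That was 8.11% of the members each way, beside 24.5% of all genes higher and 4.09% lower.

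Leaving out one library turned the sign of members that had not passed. With overexpression the ranges were -0.30 to 0.18 for Fbl, -0.18 to 0.23 for Gar1, -0.23 to 0.041 for Noc4l, -0.020 to 0.028 for Npm1, -0.042 to 0.11 for Pes1, -0.42 to 0.19 for Rrp1b, -0.52 to 0.019 for Rrp9, -0.15 to 0.0067 for Utp20 and -0.39 to 0.085 for Wdr12. In Ly6d-high cells they were -0.12 to 0.14 for Dkc1, -0.19 to 0.039 for Fbl, -0.079 to 0.056 for Gnl3, -0.063 to 0.42 for Mybbp1a, -0.19 to 0.092 for Nolc1, -0.0056 to 0.21 for Pes1, -0.050 to 0.12 for Polr1c, -0.15 to 0.0077 for Wdr12, -0.0073 to 0.20 for Wdr75 and -0.033 to 0.35 for Azin1. A lone library is assumed to vary like the other group. With 2 libraries a group, standard errors of 0.06 to 0.18 (overexpression) and 0.11 to 0.24 (Ly6d-high) limit what could be seen. The cause of these changes was not tested.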
